A study of Sus scrofa with 48 samples.

Results

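Glycolysis turns glucose into pyruvate and lactate, and in fat cells it also supplies glycerol 3-phosphate and the carbon for new fatty acids. Glucose enters through facilitative transporters of the SLC2A family, among which SLC2A4 (GLUT4) answers to insulin in fat and muscle and SLC2A5 (GLUT5) carries fructose. Hexokinases then trap the sugar, phosphofructokinase commits it under the control of fructose 2,6-bisphosphate, and the lower steps run to pyruvate, which lactate dehydrogenase interconverts with lactate and monocarboxylate transporters (SLC16A) move across membranes. Many steps have a form that is typical of skeletal muscle (PFKM, PGAM2, ENO3, FBP2) beside a widespread one.

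The genes of this route, with hexose and lactate transporters, were followed in dorsal subcutaneous adipose tissue (SCAT) of growing Large White barrows, 1 array per pig. The pigs came from lines divergently selected on residual feed intake (RFI), where low RFI stands for the more feed-efficient line. Feed was offered ad libitum. It was rich in either fat and fiber (HF) or starch (LF, low in both), with energy and protein content of the feed matched, and the pigs were 132 days old at sampling. Diet and line were crossed into 4 groups of 12 pigs, and all 48 arrays were used. The HF diet differs from LF in both fat and fiber, which cannot be told apart here. Since intake was not fixed, differences in intake and body weight that go with a diet cannot be told apart from its composition either. The study also reports that final body weight differed between the lines, so line and body weight cannot be told apart here.

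Of 36 listed symbols, PKM2 is an older name of PKM, which left 35 genes. A gene counted as measured if 9 or more of the 12 arrays in any group read one of its probes well above background, and the brightest such probe stood for it. This gave 31 genes among 11229 in all, and 92 of the 95 probes named for them. The genes with no probe named for them were PFKL, PFKP, PFKFB2 and PKLR, so the liver and platelet forms of phosphofructokinase were not analysed here. The brightest probe was well above background on all 48 arrays for each gene but PGAM2, for which this held on 10 arrays of each line under HF, and under LF on 9 of low and 11 of high RFI pigs.

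Values are log2 signals minus the median of the same array, so they follow 1 probe across pigs and do not rank genes by abundance. A gene was called by limma when it passed all of the study's cut-offs: fold change above 1.1, unadjusted p below 0.01, and p below 0.08 after Benjamini-Hochberg adjustment over all 11229 genes. Adipocyte markers were well above background (7 of 8 listed genes kept), with mean values per array from 7.27 to 7.98 in HF pigs and from 7.42 to 8.15 in LF pigs. In whole tissue, fewer cells of a type and less RNA per cell cannot be told apart.

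Skeletal muscle markers set 3 arrays apart. The mean of the 9 muscle markers kept, out of 12 listed, was 1.15 in HF low RFI pig 8, 1.12 in LF low RFI pig 9 and 1.64 in LF high RFI pig 11, while it ran from -1.14 to 0.09 in the other 45. Where leaving them out changed a call among the 31 genes, and for PGAM2 and ENO3, both values are given.

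Of the 8 genes called by diet or by line, 5 were read by a single probe. Its sequence is given for each of these, since 1 stretch of the transcript then carries the result, with 1 probe of a close relative of the gene with the largest difference. They are 60 bases long, come from the array's own annotation, and have no genome position in the files. The SLC2A4 probe shown is a dimmer one (diet difference -0.02), not the brightest, which stands for the gene in the values given for SLC2A4. The SLC2A5 and SLC2A4 probes lie in matching stretches of these related transporters, and capitals mark the bases that are identical when the first base of the SLC2A5 probe is set against base 4 of the SLC2A4 probe.
SLC2A5: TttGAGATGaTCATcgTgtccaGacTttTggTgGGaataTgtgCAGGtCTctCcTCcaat
SLC2A4: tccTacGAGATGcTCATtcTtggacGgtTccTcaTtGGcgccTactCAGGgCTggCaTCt
Of 57 bases aligned without gaps, 28 (49.1%) were identical. No run of 20 bases of the SLC2A5 probe was found in a probe of another named gene, and 1 unnamed probe shared such a run. The probes that read HK3, PFKFB3 and ALDOA (called by diet) and FBP2 (called by line) are shown in lower case, with no base marked.
HK3: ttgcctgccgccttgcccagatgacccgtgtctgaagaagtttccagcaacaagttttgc
PFKFB3: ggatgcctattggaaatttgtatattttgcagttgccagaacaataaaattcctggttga
ALDOA: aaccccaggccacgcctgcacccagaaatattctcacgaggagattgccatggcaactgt
FBP2: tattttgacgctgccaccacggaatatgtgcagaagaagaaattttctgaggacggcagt
None of these 4 shared a run of 20 bases with a probe of another gene.

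The first comparison asked how the fat and fiber diet altered the route relative to starch. Under HF, 7 of the 31 genes were called lower and none was called higher. They were the fructose transporter SLC2A5, the hexokinases HK1, HK2 and HK3, PFKFB3, which makes fructose 2,6-bisphosphate, ALDOA and GAPDH. These 7 are 22.6% of the members, against 12.6% of all genes called by diet and 9.31% called lower. Differences below 0 were seen for 27 of the 31 genes (87.1%), against 62.2% of all genes. The median log2 difference was -0.18 for the members and -0.04 for all genes. The count moved with the processing. It was 2 with array position as a block (8.92% of all genes), where SLC2A5 and HK2 were still called, 4 with arrays scaled to the 75th percentile (1206 of 11229 genes) and 15 with array weights (18.5%). Without the 3 arrays with high muscle markers it was 8, against 11.7%. Of the 92 member probes, 12 were called by diet (13.0%), against 13.1% of all kept probes.

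**Figure D1:**
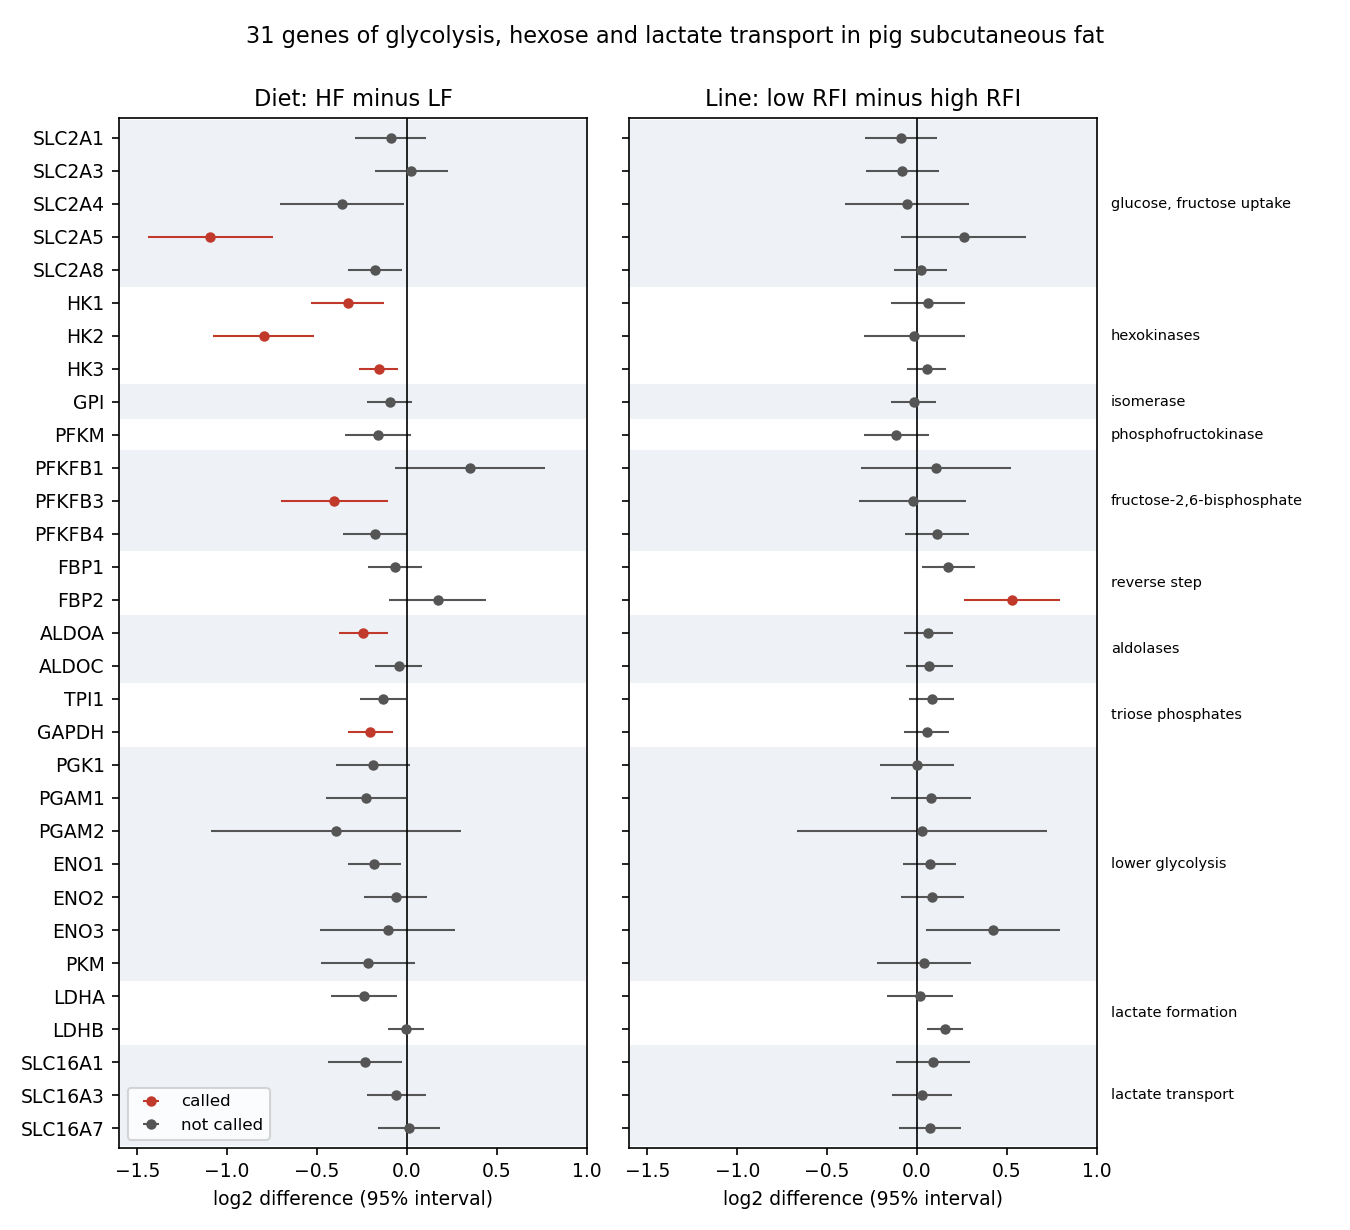
Log2 differences of the 31 genes with 95% intervals from limma, from uptake (top) to lactate transport (bottom), for diet (HF minus LF, left) and line (low minus high RFI, right), 24 against 24 pigs each. Red points are called, 7 to the left of 0 by diet and FBP2 to the right of 0 by line.

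SLC2A5 showed the largest diet difference of the 31. Its values (lowest, median, highest) were -2.65, -1.77 and -0.48 in HF low RFI pigs and -3.59, -1.94 and -0.86 in HF high RFI pigs. They were -1.59, -0.55 and -0.12 in LF low RFI pigs and -1.79, -0.89 and 0.28 in LF high RFI pigs. The diets overlapped, but 13 of 24 HF pigs lay below the lowest LF pig and 7 of 24 LF pigs above the highest HF pig. The log2 difference was -1.09 (SE 0.17, adjusted p = 5.71e-05, limma), which is 2.13-fold lower under HF. The gene has 1 probe on the array.

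Insulin-responsive SLC2A4 is the main glucose carrier of fat cells. Its values were 4.59, 5.37 and 6.24 in HF pigs and 3.96, 5.87 and 6.98 in LF pigs, so the LF range enclosed the HF range. The log2 difference was -0.36 (SE 0.17, adjusted p = 0.167, limma) and it was not called. Its 5 kept probes, of which 2 have the same sequence, gave diet differences from -0.48 to -0.02. The value was -0.70 (adjusted p = 0.0213, limma) on the arrays of the first scan date and -0.03 (adjusted p = 0.976) on those of the second, and the difference between scan dates was not tested. Without the 3 muscle-marker arrays it was -0.44 and passed the cut-offs (adjusted p = 0.066, limma).

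The other hexose transporters were not called by diet. SLC2A1, the widespread basal glucose carrier, differed by -0.09 on the log2 scale (SE 0.098), and its other probe by 0.25. That probe was far dimmer and well above background on 31 of 48 arrays, and it may lie on the opposite strand, which was not checked. SLC2A3, a high-affinity glucose carrier, differed by 0.02 (SE 0.10), and SLC2A8, an intracellular carrier, by -0.18 (SE 0.074, adjusted p = 0.116, limma).

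HK1, HK2 and HK3 were all called lower under HF. HK2, the form typical of insulin-sensitive tissues, had values of 3.39, 4.49 and 5.33 in HF low RFI pigs and 2.78, 4.72 and 5.23 in HF high RFI pigs. The values were 4.44, 5.32 and 5.96 in LF low RFI pigs and 4.80, 5.16 and 6.14 in LF high RFI pigs. Of the 24 HF pigs, 10 lay below every LF pig, and 9 of the LF pigs lay above every HF pig. The log2 difference was -0.80 (SE 0.14, adjusted p = 2.19e-04, limma), or 1.74-fold lower under HF. A second HK2 probe from another stretch of the transcript was also called, at -0.73.

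HK1, the widespread mitochondria-bound hexokinase, ranged from 5.22 to 6.47 (median 5.96) in HF pigs and from 5.34 to 6.81 (median 6.33) in LF pigs. Its log2 difference was -0.33 (SE 0.10, adjusted p = 0.0276, limma). The 3 HK1 probes overlap in sequence and gave -0.35 to -0.33, so they are not separate readings of the transcript. HK3, a form known from white blood cells, ranged from 1.94 to 2.60 (median 2.24) in HF pigs and from 2.07 to 2.77 (median 2.42) in LF pigs. Its log2 difference was the smallest among the called genes, at -0.16 (SE 0.054, adjusted p = 0.0492, limma). Macrophage markers, beside HK3, showed no call by diet in 9 of 9 genes, with mean values per array from 0.96 to 2.45 in HF and from 0.88 to 2.51 in LF pigs.

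**Figure D2:**
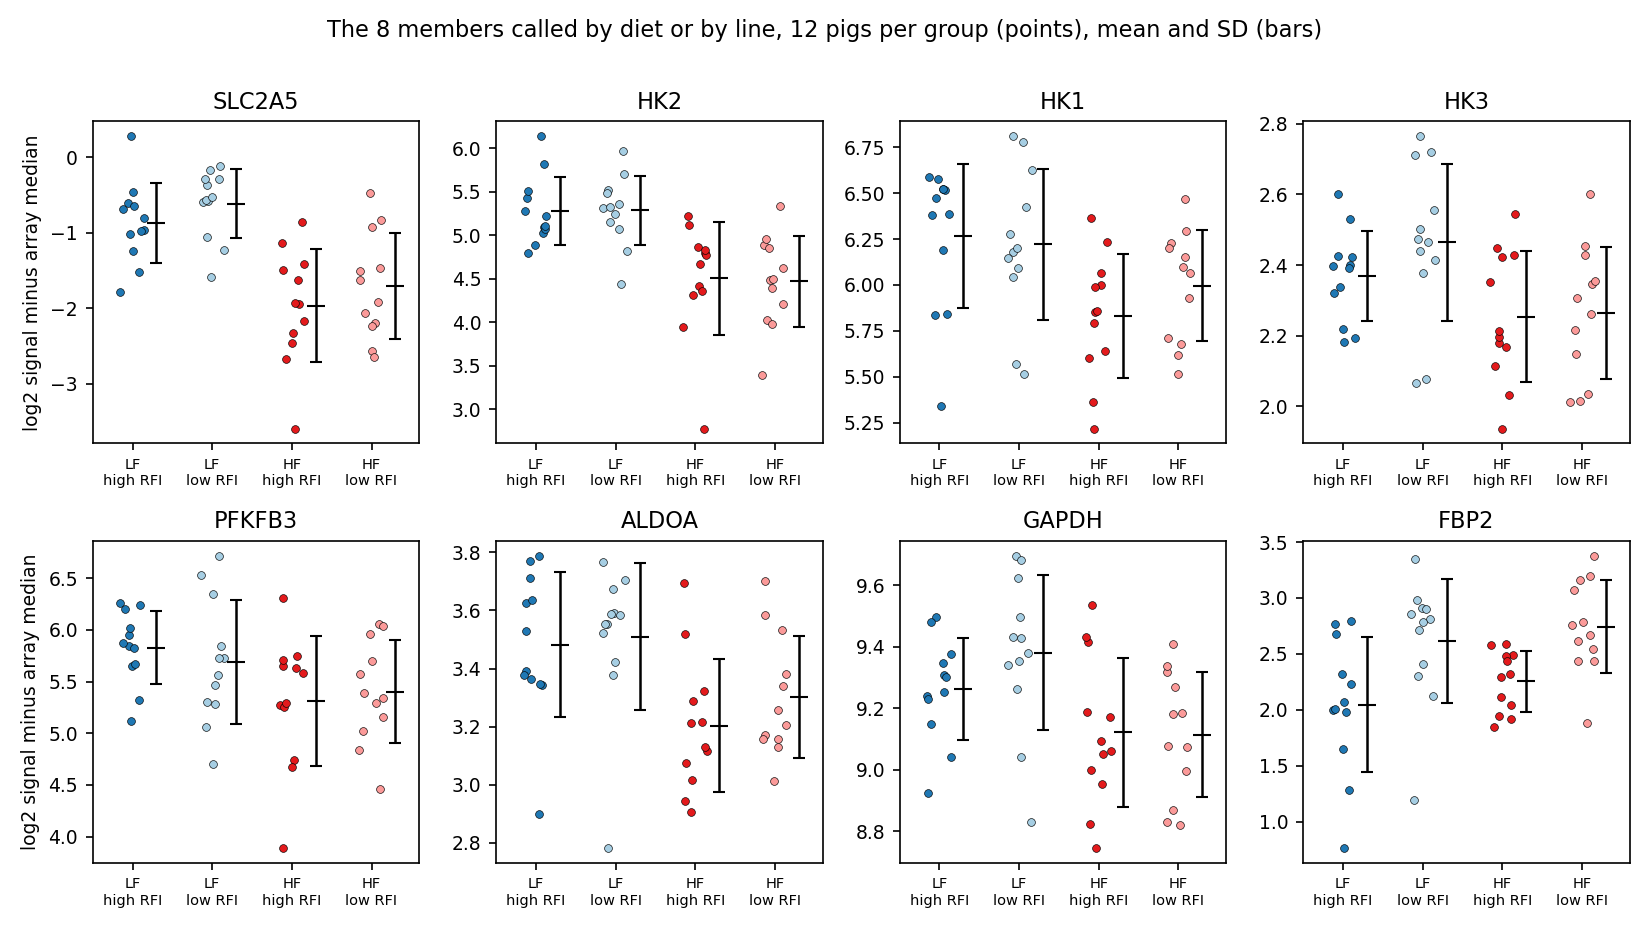
Log2 signal minus array median of the 8 genes called by diet or by line. Points are pigs, 12 per group, and bars give the mean and SD of each group; SLC2A5 and HK2 lie lower in both HF groups, and FBP2 lies higher in the low RFI group of each diet.

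At the phosphofructokinase step, 1 of 3 regulators measured was called. PFKFB3 ranged from 3.89 to 6.31 (median 5.36) in HF pigs and from 4.70 to 6.72 (median 5.78) in LF pigs. The log2 difference was -0.40 (SE 0.15, adjusted p = 0.068, limma). Its call is the least firm of the 7, since it was kept in 5 of 19 alternative settings, while the difference stayed below 0 in all 19. Without the 3 muscle-marker arrays it was -0.38 (adjusted p = 0.0985, limma) and was not called. PFKFB1, the form first described in liver and muscle, had a difference of 0.35 (SE 0.21, adjusted p = 0.284, limma), with its 5 kept probes between 0.24 and 0.36, and was not called. PFKFB1 ranged from 0.18 to 2.41 (median 1.55) in HF pigs and from -0.56 to 2.32 (median 1.39) in LF pigs, and without the 3 muscle-marker arrays the difference was 0.21 (SE 0.19). PFKFB4 ran from -2.09 to -1.03 (median -1.39) in HF and from -1.92 to -0.82 (median -1.22) in LF pigs. It differed by -0.18 (SE 0.089, adjusted p = 0.190, limma), and the muscle form of the enzyme itself, PFKM, by -0.16 (SE 0.091, adjusted p = 0.263). Glucose-6-phosphate isomerase (GPI), the step before it, differed by -0.10 (SE 0.063). The bisphosphatases of the reverse step were not called by diet, at 0.17 for FBP2 (SE 0.13, adjusted p = 0.442, limma) and -0.07 for FBP1 (SE 0.074, adjusted p = 0.614).

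ALDOA, the aldolase typical of muscle and present widely, was lower under HF. Its values ran from 2.91 to 3.70 (median 3.21) in HF pigs and from 2.78 to 3.79 (median 3.55) in LF pigs, and 22 of 24 LF pigs lay above the HF mean. The log2 difference was -0.24 (SE 0.068, adjusted p = 0.0148, limma). ALDOC, an aldolase best known from brain, ran from 7.85 to 8.82 in HF and from 7.72 to 8.69 in LF pigs and differed by -0.05 (SE 0.066). GAPDH, which oxidises glyceraldehyde 3-phosphate, ran from 8.74 to 9.54 (median 9.09) in HF and from 8.83 to 9.70 (median 9.34) in LF pigs. Its log2 difference was -0.20 (SE 0.062, adjusted p = 0.0263, limma), and its other probe was called too, at -0.24. GAPDH is often taken as a reference gene.

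None of the lower steps that follow GAPDH was called by diet. The log2 differences were -0.19 for PGK1, -0.23 for PGAM1, -0.18 for ENO1, -0.06 for ENO2 and -0.22 for PKM, and their 95% intervals reached from -0.48 (PKM) to 0.11 (ENO2). PGAM1 ran from 2.27 to 3.67 (median 2.99) in HF and from 2.26 to 3.86 (median 3.27) in LF pigs. ENO1, the widespread enolase, ran from 4.62 to 5.51 (median 4.95) in HF and from 4.34 to 5.48 (median 5.25) in LF pigs. Without the 3 muscle-marker arrays ENO1 was -0.20 and was called (adjusted p = 0.067, limma). ENO2, the enolase typical of neurons, ran from -1.002 to 0.60 (median -0.43) in HF and from -0.80 to 0.15 (median -0.39) in LF pigs. All 7 PGK1 probes, both PGAM1 probes and all 5 PKM probes were below 0. Triosephosphate isomerase (TPI1) differed by -0.13 (adjusted p = 0.163, limma). Of its 6 probes, 1 was called (-0.20), and the array describes that probe as a TPI1 pseudogene, so signal of the gene and of a near copy cannot be told apart there.

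**Figure D3:**
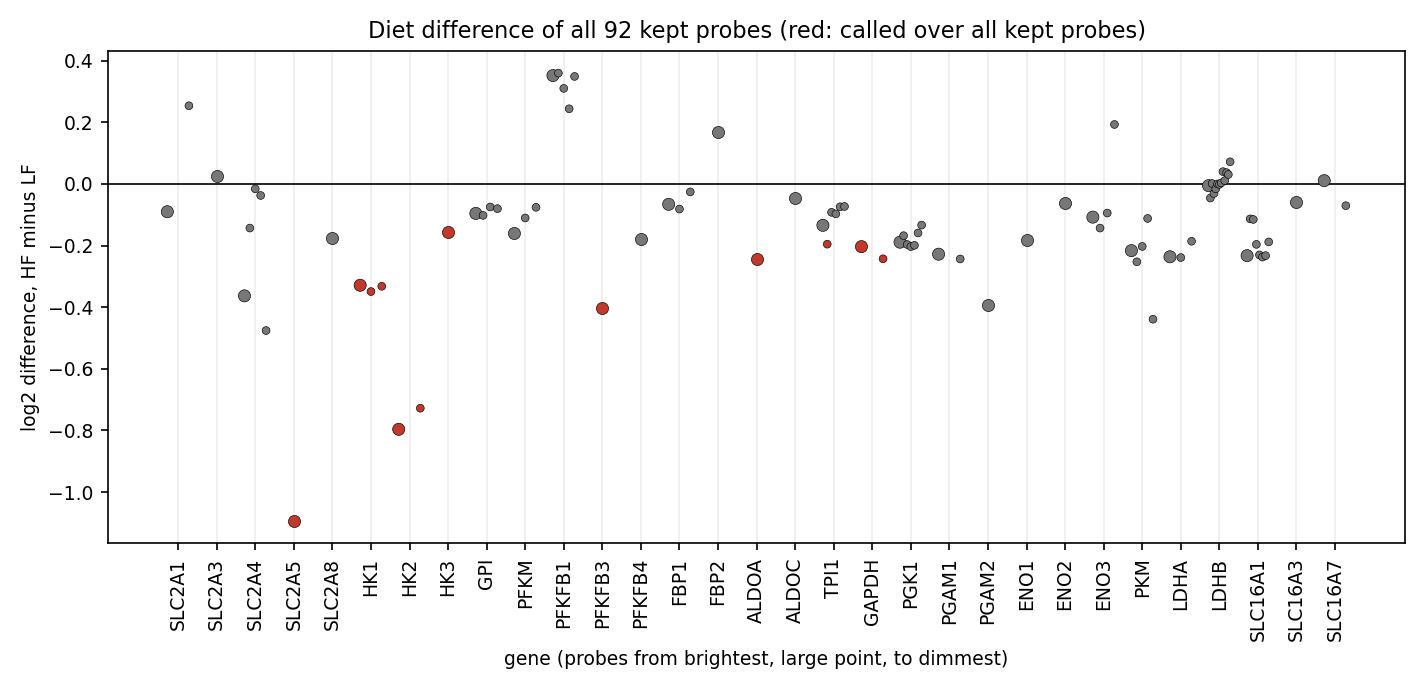
Diet difference (log2, HF minus LF) of each of the 92 kept probes, by gene, with the brightest probe as the large point and red for probes called over all kept probes. The 2 HK2 probes lie at -0.80 and -0.73, the 5 PFKFB1 probes all lie above 0, and the 13 LDHB probes lie between -0.05 and 0.07.

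Lactate dehydrogenase subunits were read side by side. LDHA, the subunit typical of muscle, ran from 4.34 to 5.58 (median 5.16) in HF and from 4.52 to 5.94 (median 5.40) in LF pigs. Its log2 difference was -0.24 (SE 0.091, adjusted p = 0.0855, limma), just outside the cut-offs. It passed them in 6 of 19 alternatives, among them slide as a block (adjusted p = 0.0336, limma). LDHB, the subunit typical of heart, differed by -0.01 (SE 0.049, 95% interval -0.10 to 0.09), and its 13 probes fell into 7 separate stretches. The reference lists this symbol at more than one locus, so near-identical copies may share the signal.

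Lactate and pyruvate leave or enter cells through the SLC16A transporters. SLC16A1 (MCT1) differed by -0.23 by diet (SE 0.10, adjusted p = 0.138, limma), with all 8 of its probes below 0. Its values ran from 0.87 to 2.54 (median 1.63) in HF and from 0.89 to 2.44 (median 1.93) in LF pigs. SLC16A3 (MCT4), the export form of glycolytic cells, differed by -0.06 (SE 0.082), with values from -1.31 to -0.15 (median -1.02) in HF and from -1.28 to -0.38 (median -0.95) in LF pigs. SLC16A7 (MCT2) differed by 0.01 (SE 0.085), with values from -0.33 to 0.72 (median 0.23) in HF and from -0.75 to 0.68 (median 0.23) in LF pigs. None of the SLC16A genes was called, and the diets overlapped in each.

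The relation of 2 forms of a step was also compared within each array, where the scaling between arrays cancels. Such a ratio shows unequal change, not which form moved. Of 15 listed pairs, 12 could be formed, and the 24 permutation tests by diet and by line (two-sided, 100000 resamples over pigs) were adjusted together. HK2 fell relative to HK1 under HF by 0.47 on the log2 scale (SE 0.15, permutation p = 0.003, adjusted p = 0.036). ALDOC rose relative to ALDOA by 0.20 (SE 0.061, permutation p = 0.0021, adjusted p = 0.036), and SLC16A7 relative to SLC16A1 by 0.24 (SE 0.086, permutation p = 0.0066, adjusted p = 0.048). LDHB relative to LDHA differed by 0.23 (SE 0.097, permutation p = 0.022, adjusted p = 0.106), which did not pass 0.05. These 3 calls are close to the threshold. None of them held when the mean of all kept probes of a gene was used, where the differences were -0.43, 0.20 and 0.16 in the same order (permutation test, adjusted p = 0.088, 0.0504 and 0.144). ALDOC and ALDOA have 1 probe each, so there the joint adjustment alone moved. Without the 3 muscle-marker arrays the differences were -0.36, 0.20 and 0.26 (adjusted p = 0.0672, 0.054 and 0.054, permutation test).

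The diet response was then set side by side in the RFI lines. In low RFI pigs 2 of 31 genes were called (2.41% of all genes, 1.79% lower), and in high RFI pigs also 2 (1.48% of all genes, 1.23% lower). They were SLC2A5 and HK2 in each line. SLC2A5 differed by -1.09 in low RFI and by -1.096 in high RFI pigs (SE 0.24 in each, adjusted p = 0.018 and 0.0219, limma). HK2 differed by -0.82 and -0.78 (SE 0.20 in each, adjusted p = 0.0273 and 0.0432, limma). Without the 3 muscle-marker arrays HK2 in low RFI pigs was -0.71 (adjusted p = 0.102, limma) and was not called. In high RFI pigs HK1 (-0.52) and ALDOA (-0.33) were then called too (adjusted p = 0.0388 and 0.0652, limma). With array position as a block, limma called 0 of 31 in low RFI pigs (0% of all genes) and 0 in high RFI pigs (0.214%), where 4 and 5 members had a raw p under 0.05, against 10.8% and 9.93% of all genes. There SLC2A5 was -1.05 in each line (adjusted p = 0.189 in low and 0.129 in high RFI pigs, limma). HK2 was -0.76 and -0.81 (adjusted p = 0.244 and 0.153, limma). No gene was called for the interaction of diet and line by limma, among the 31 or among all genes (0%), and 0 of the 31 against 0.891% of all genes had a raw p under 0.05. The two-way analysis of variance without a moderated spread also gave 0. The 95% interval of the interaction was -0.69 to 0.70 for SLC2A5 and -0.60 to 0.52 for HK2 on the log2 scale.

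The next comparison asked whether the route differed between the lines. FBP2, the muscle form of fructose-1,6-bisphosphatase, which runs the phosphofructokinase step in reverse, was the 1 gene of 31 called (3.23%, against 1.14% of all genes called by line and 0.757% called higher), and it was higher in low RFI pigs. Its values were 1.88, 2.72 and 3.38 in HF low RFI pigs and 1.84, 2.30 and 2.59 in HF high RFI pigs. They were 1.19, 2.80 and 3.35 in LF low RFI pigs and 0.76, 2.04 and 2.79 in LF high RFI pigs. The lines overlapped, while 21 of 24 low RFI pigs lay above the high RFI mean.

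The log2 difference of FBP2 between lines was 0.53 (SE 0.13, adjusted p = 0.0373, limma), 1.44-fold higher in low RFI. It was 0.49 within HF and 0.57 within LF (SE 0.19 in each), where neither passed the cut-offs (adjusted p = 0.798 and 0.499, limma). No member was called by line within either diet, where 0.00891% (HF) and 0.0623% (LF) of all genes were, by limma. Within HF 3 members (against 4.66% of all genes) and within LF 2 members (against 6.41%) had a raw p under 0.05, and the two-way analysis of variance also called 0 in each. By scan date the difference was 0.60 on the first and 0.45 on the second date, and on the second no member was called by line. With array position as a block no member was called by line either. FBP1, the liver form, ran from 3.49 to 4.57 (median 3.99) in HF and from 3.59 to 4.46 (median 4.08) in LF pigs. By line it differed by 0.17 in the same direction (SE 0.074, adjusted p = 0.351, limma) and was not called. Within arrays FBP2 was higher relative to FBP1 in low RFI pigs by 0.36 (SE 0.13, permutation p = 0.008, adjusted p = 0.048), and with mean probes or without the muscle-marker arrays the adjusted p was 0.0516 and 0.0672.

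Since FBP2 is known from muscle, it was set beside the muscle markers. The 3 arrays with high markers gave FBP2 values of 2.32, 2.67 and 2.71, inside the range of the other 45 (0.76 to 3.38). Without them the line difference was 0.54 (adjusted p = 0.0588, limma) and was still called.

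PGAM2 and ENO3, the muscle forms of phosphoglycerate mutase and enolase, did separate the 3 arrays. PGAM2 read 0.13, 0.58 and 0.65 on them and from -5.78 to -2.61 on the other 45. ENO3 read 2.87, 3.24 and 3.58 on them and from 0.15 to 1.31 on the others. PFKM did not separate them (1.86 to 2.03, against 1.39 to 2.75). The diet differences of PGAM2 (-0.39, SE 0.34) and ENO3 (-0.11, SE 0.19) were not called. Without the 3 arrays they were -0.24 (SE 0.19) and 0.004 (SE 0.075), and were again not called.

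ENO3 by line changed its call with these arrays. Over all 48 arrays it was 0.42 higher in low RFI pigs (SE 0.19, adjusted p = 0.376, limma) and was not called. Over the other 45 it ran from 0.42 to 1.31 (median 1.02, n = 22) in low RFI pigs and from 0.15 to 0.99 (median 0.54, n = 23) in high RFI pigs. There the log2 difference was 0.37 (adjusted p = 0.00869, limma) and it was called, beside FBP2, so that 2 of 31 genes against 0.828% of all genes were called by line. All 4 ENO3 probes, which fall into 3 separate stretches, were above 0 by line over the 48 arrays, from 0.15 to 0.42. Leaving the muscle-marker arrays out was chosen after seeing the data, and these arrays hold the highest ENO3 values.

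**Figure D4:**
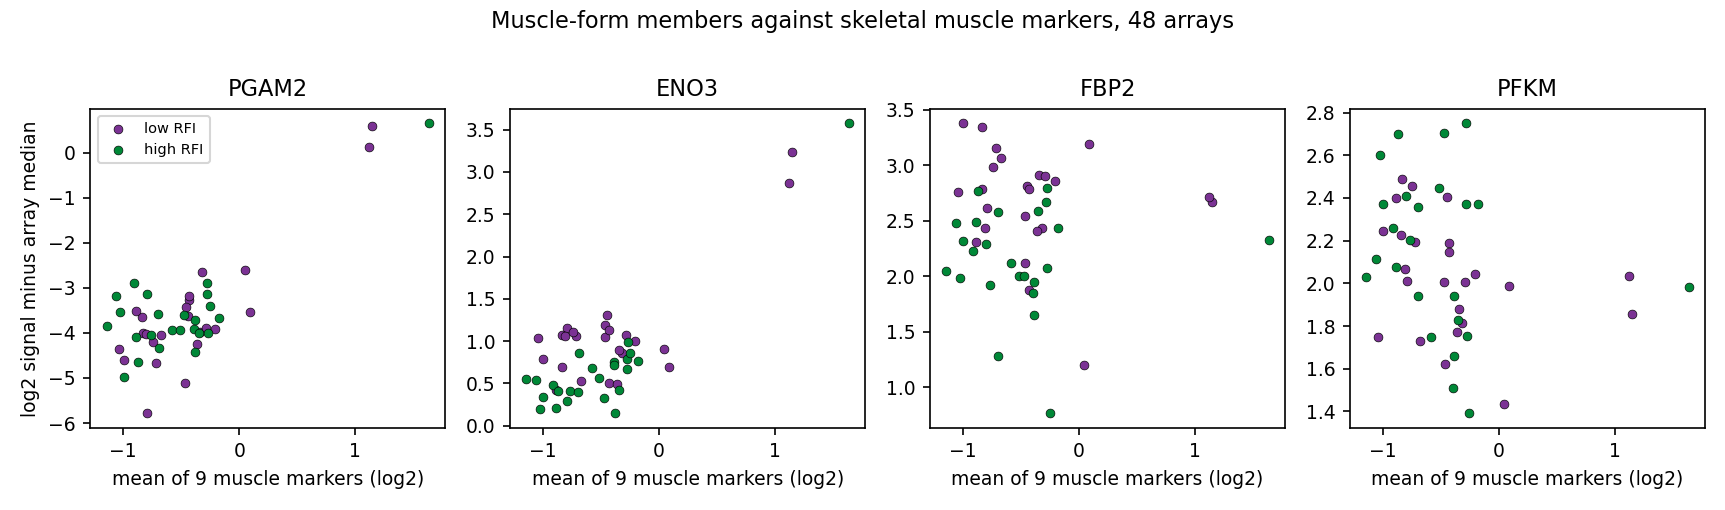
PGAM2, ENO3, FBP2 and PFKM (log2 signal minus array median) against the mean of 9 skeletal muscle markers, 48 arrays, coloured by line. The 3 arrays with marker means above 1 hold the highest PGAM2 and ENO3 values but not those of FBP2 or PFKM.

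Of the 31 genes, 4 had a raw p under 0.05 by line, against 10.3% of all genes. They were FBP2, LDHB, FBP1 and ENO3. LDHB ran from 8.44 to 9.03 (median 8.80) in low RFI and from 8.34 to 8.91 (median 8.57) in high RFI pigs. The log2 difference was 0.16 (SE 0.049, adjusted p = 0.13, limma), all 13 probes lay between 0.12 and 0.17, and it was not called. SLC2A4 lay below 0 by line on all 5 probes (-0.24 to -0.06) and was not called. The remaining uncalled genes had line differences between -0.11 (PFKM) and 0.26 (SLC2A5).

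Around the core route, 42 further genes of its branches and regulators were listed and 35 were measured. By diet 7 of 35 were called lower under HF and 0 were called higher, against 9.31% called lower among all genes. Differences below 0 were seen for 30 of the 35, against 62.2% of all genes, and the median was -0.12 against -0.04. TIGAR, which lowers fructose 2,6-bisphosphate, differed by -0.44 (SE 0.12), and LDHD, the D-lactate dehydrogenase, by -0.48 (SE 0.13). SLC2A12, another glucose carrier, differed by -0.31 (SE 0.094), and galactose mutarotase (GALM) by -0.26 (SE 0.082). The regulators called were MLXIPL (ChREBP), a glucose-responsive transcription factor, at -0.40 (SE 0.15, adjusted p = 0.0705, limma), and HIF1A, the hypoxia-inducible factor, at -0.16 (SE 0.06, adjusted p = 0.0684). These calls were kept in 6 (MLXIPL) and 7 (HIF1A) of 19 alternative settings, and without the 3 muscle-marker arrays MLXIPL was -0.36 (adjusted p = 0.134, limma) and not called.

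By line, 1 of the 35 was called (1.14% of all genes, 0.383% lower). It was MLX, the partner of ChREBP, which was 0.41 lower in low RFI pigs (log2 difference -0.41, SE 0.11). The mean of its kept probes gave -0.18 and no call. The mitochondrial pyruvate carrier subunit MPC2, the lactate transporter chaperone BSG and TXNIP, a glucose-responsive brake on glucose uptake, were not called by diet or by line.

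Over the 48 arrays, MPP1 had the pattern most like SLC2A5 among all genes (Pearson r = 0.77), and ASPH, YAF2 and CHCHD4 were also among the most alike (r = 0.69 to 0.70). This is a description over arrays that share the diet difference. The correlation of MPP1 with SLC2A5 was 0.59 when each group's mean was taken out.

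Marker lists of other cell types were read beside these differences. Fibroblast markers differed the other way from most of the 31 genes: all 6 were above 0 by diet (median 0.21, against -0.04 for all genes) and 2 of 6 were called higher under HF (3.32% of all genes), with means per array from 5.70 to 6.65 in HF and from 5.23 to 6.96 in LF pigs. Adipocyte markers had 2 of 7 genes called lower under HF (9.31% of all genes), with 4 below 0 and a median of -0.11. Skeletal muscle markers differed in the same direction as most of the 31 genes: all 9 were below 0 by diet (median -0.20), with a median of the means per array of -0.71 in HF and -0.41 in LF pigs. Without the 3 arrays set apart, all 9 were again below 0 (median -0.13) and 1 of them was called. The 4 blood cell markers were also all below 0 (median -0.12). Over all 48 arrays macrophage, skeletal muscle, blood cell and endothelial markers had none called by diet, and no marker list had a gene called by line. The part of cell makeup in the diet differences was not tested.

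Slides and scan dates held equal numbers of each group, but array positions on the slide did not (position 1 held 5 HF and 1 LF arrays, position 8 held 1 HF and 5 LF, and of low RFI pigs position 1 held 4 HF and 0 LF and position 8 held 0 HF and 3 LF). With position as a block, SLC2A5 (-1.05) and HK2 (-0.79) were called by diet and the other 5 were not (adjusted p from 0.0825 to 0.237, limma), and FBP2 by line was 0.48 (adjusted p = 0.115). SLC2A5 was -1.12 and -1.07, and HK2 -0.73 and -0.87, within the first and second scan dates.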

How the data were processed

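RNA of dorsal SCAT from 48 pigs was hybridised on 1-colour (Cy3) Agilent 60K porcine arrays, 1 per pig. The deposited scanner files (Feature Extraction 10.7.3.1) give background-corrected intensity values per spot. A deposited table of the authors' log2 values, each array centred on its median, served as an alternative. The number of arrays limits the precision.

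From processed intensity, log2 was taken, spots marked as outliers were left out, and probes well above background on at least 9 of 12 arrays of a group were kept (44356 of 60305). Each array was centred on its median. The median before centring ran from 7.92 to 8.78. Probes were named through the array's annotation and RefSeq gene tables, and the brightest kept probe stood for a gene. limma 3.58.1 (R 4.3.3) was fitted with 4 group means and an intensity trend over all 11229 genes, and also over all kept probes. It was tested on simulated data. Pairs of forms were compared by permutation tests.

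The members and all lists were chosen with earlier results of these data known. Every member is accounted for, with ranges for called genes and for most forms of a step that has several. Of the branch list and of the genes most like SLC2A5 the called or nearest genes are named, except 1 in each that is not reported here, and markers are given by list. The 19 alternatives cover scaling, background, filter, probe choice, batch, weights, test and cut-offs. Promoter sequences were not analysed here.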

Additional observations from a re-analysis of the deposited data

How the results depend on the processing

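The 7 diet differences kept their sign in all 19 alternatives. SLC2A5 (-1.15 to -0.75) and HK2 (-0.89 to -0.73) were called in 19 of 19, HK1 and ALDOA in 17, GAPDH and HK3 in 14 and PFKFB3 in 5, and FBP2 by line (0.45 to 0.60) was called in 16. Of the 24 uncalled members, 7 changed sign by diet under some alternative and 10 were called under one. Shares of all genes called under the same setting stand in brackets. Members called by diet were 4 with 75th percentile scaling (1206 of 11229 genes), 9 within the first scan date (5.97%), 2 within the second (2.34%), 2 with array position as a block (8.92%) and 15 with array weights (18.5%), against 7 (12.6%). By line they were 0 within the second scan date (0%), 0 with array position (0.454%), 2 with array weights (4.38%) and 2 without the 3 muscle-marker arrays (0.828%; chosen after seeing the data), against 1 (1.14%). In low RFI pigs the diet calls were 0 within the first (0.0178%) and 0 within the second scan date (0%), 0 with array position (0%), 5 with array weights (10.4%) and 1 without the muscle-marker arrays (0.721%), against 2 (2.41%). In high RFI pigs they were 4 (0.819%), 0 (0%), 0 (0.214%), 4 (6.16%) and 4 (1.91%) in the same order, against 2 (1.48%). With array weights 2 members were called by line within LF (0.935%), against 0 (0.0623%). The cause was not tested.

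Pairs of forms past an adjusted p of 0.05 fell from 3 by diet and 1 by line to 0 and 0 with mean probes and to 0 and 0 without the muscle-marker arrays. Array numbers are shared between groups but are not stated to pair pigs. Arrays of the same number had a mean correlation of deviations of 0.16 (lowest 0.01, highest 0.37 per number), and 21 of 48 correlated best with their own number. With the replicate number as a block, 8 members were called by diet and 1 by line, where 15.2% and 2.58% of all genes were. Depth of signal limits PGAM2 most, since it was not well above background on every array.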
